A study of Mus musculus with 18 samples.

Results

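The genes described here handle lipoproteins in liver, the particles that carry triglyceride and cholesterol in blood. They are 9 genes, Vldlr, Scarb1, Lrp1, Lpl, Lipc, Lcat, Mttp, Pltp and Abca1, named as receptors, lipases and lipid transfer genes. Their probes were taken by the gene name or transcript accession on the array. All 9 were found, with 10 probes, among 16535 genes that could be given a symbol. Liver sends out triglyceride in very low density particles, which Mttp loads, and lipases of the Lpl and Lipc family break the triglyceride down in capillaries. Remnants and high density particles return to liver through receptors such as Lrp1 and Scarb1, while Abca1, Lcat and Pltp build and remodel high density lipoprotein. Thyroid hormone is long known to act on blood lipids through liver.

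The mRNAs were measured on 2-colour arrays in livers of 5 control and 5 hypothyroid male C57BL/6 pups at postnatal day (PND) 15. Control dams and their litters drank 1% sugar water. The hypothyroid group received the same water with methimazole (MMI, 0.05%) and perchlorate (1%), which block thyroid hormone synthesis and iodide uptake, from PND 12. Dams and litters shared the water, so the exposure lasted 3 days, and one pup was taken from each litter. Per the study's methods, pups of both groups had a PBS injection 4 hours before they were killed. Each liver RNA was hybridized against universal mouse reference RNA, and every value below, unless another scale is named, is a log2 ratio of liver to reference. Such a ratio compares one gene between animals, and gives no order of level between genes. Animals are named by the numbers in the labels. Whole liver was measured, so fewer cells of a type and less RNA per cell cannot be told apart.

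Some arrays stood apart. On the slide labelled 141 (control 832 and hypothyroid 576) the ratios as labelled mirrored those of every other slide (r = -0.97 and -0.98 over all probes), although the labels and methods give liver as Cy5 throughout. The channels of both arrays were exchanged here, so the direction of these 2 arrays rests on the data. Control 616 had compressed ratios, with an SD over probes of 0.73 against 1.01 to 1.1 on the other 9 arrays, and 423 probes with no value against 2 to 8. Its r with the other slides was 0.88 against 0.97 to 0.99. Of 12 kept markers of pancreatic acinar cells, the mean ratio was 3.47, 3.52 and 2.13 in controls 832, 522 and 616, and from 0.12 to 0.25 in the other 7 livers. Of 6 kept adipocyte markers, the mean ratio was 2.10 in hypothyroid 311 and from 0.63 to 1.06 in the other 9 livers, and there Cfd was at 4.04 and Adipoq, below the limit for keeping, at 2.08, against at most 0.74 and 0.25 elsewhere. Plin1, Retn and Cidec were also highest there, while Fabp4 and Adig were not. The leptin probe (Lep) was not well above background on any array. The 7 hepatocyte markers tested were well above background in all 10 livers. Their mean ratio ran from 2.48 (control 616) to 4.30 in control and from 3.89 to 4.48 in hypothyroid liver. As a check of the labels, the thyroid hormone target Me1 was lower in hypothyroid liver (-0.47, limma adjusted p = 0.272), with all 5 hypothyroid values below all 5 control values, as for 0.986% of all probes. Dio1 and Thrsp differed by -0.94 (limma adjusted p = 0.604) and -1.16 (limma adjusted p = 0.344), and without control 616 by -1.27 and -1.38.

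None of the 9 genes passed an adjusted p of 0.05 in the limma fit across 32057 probes, where 3 probes, or 0.00936%, did so. Hypothyroid liver had the higher mean for 8 of the 9 genes, by up to 0.54 for Lpl and 0.52 for Vldlr, and only Pltp had a lower mean. Scarb1, Lpl and Abca1 had an unadjusted limma p below 0.05, which is 3 of 9 genes against 7.46% of all probes. The median difference of the 9 genes was 0.26 and that of all probes was -0.01, and 46.6% of all probes had a higher hypothyroid mean. In no gene were the groups fully apart, as they were for 2.07% of all probes. The median difference of the 7 hepatocyte markers was also above 0, at 0.61 over 10 arrays and 0.34 without control 616. The part of hepatocyte RNA in the members' differences was not tested. The 9 genes share the same 10 livers, and control 616 had the lowest ratio of all 10 arrays for 7 of them.

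Without control 616, 6 of the 9 genes had the higher mean in hypothyroid liver, against 49.4% of all probes, and their median difference was 0.09. Vldlr and Abca1 then had an unadjusted limma p below 0.05, which is 2 of 9 genes against 7.4% of all probes, and Vldlr, Abca1, Lpl and Scarb1 had the 4 highest differences. Again none passed the adjusted threshold, which 0.107% of all probes did, and in none were the groups fully apart, as they were for 2.92%. With hypothyroid 311 left out too, Vldlr and Abca1 again had an unadjusted limma p below 0.05, against 7.86% of all probes, and 6 of 9 means were higher, against 48.9%. Against the 2 controls low in acinar markers alone (881 and 391), 8 of 9 means were higher, against 49.8% of all probes, and Lcat and Abca1 had an unadjusted limma p below 0.05, against 7.38%. In that set the dimmer Lpl probe, which does not represent the gene in these counts, also had an unadjusted limma p below 0.05. None passed the adjusted threshold in either set, where 0.039% and 0.00312% of all probes did. Both of these further choices were made after seeing the data, and the last rests on 2 control livers.

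**Figure D1:**
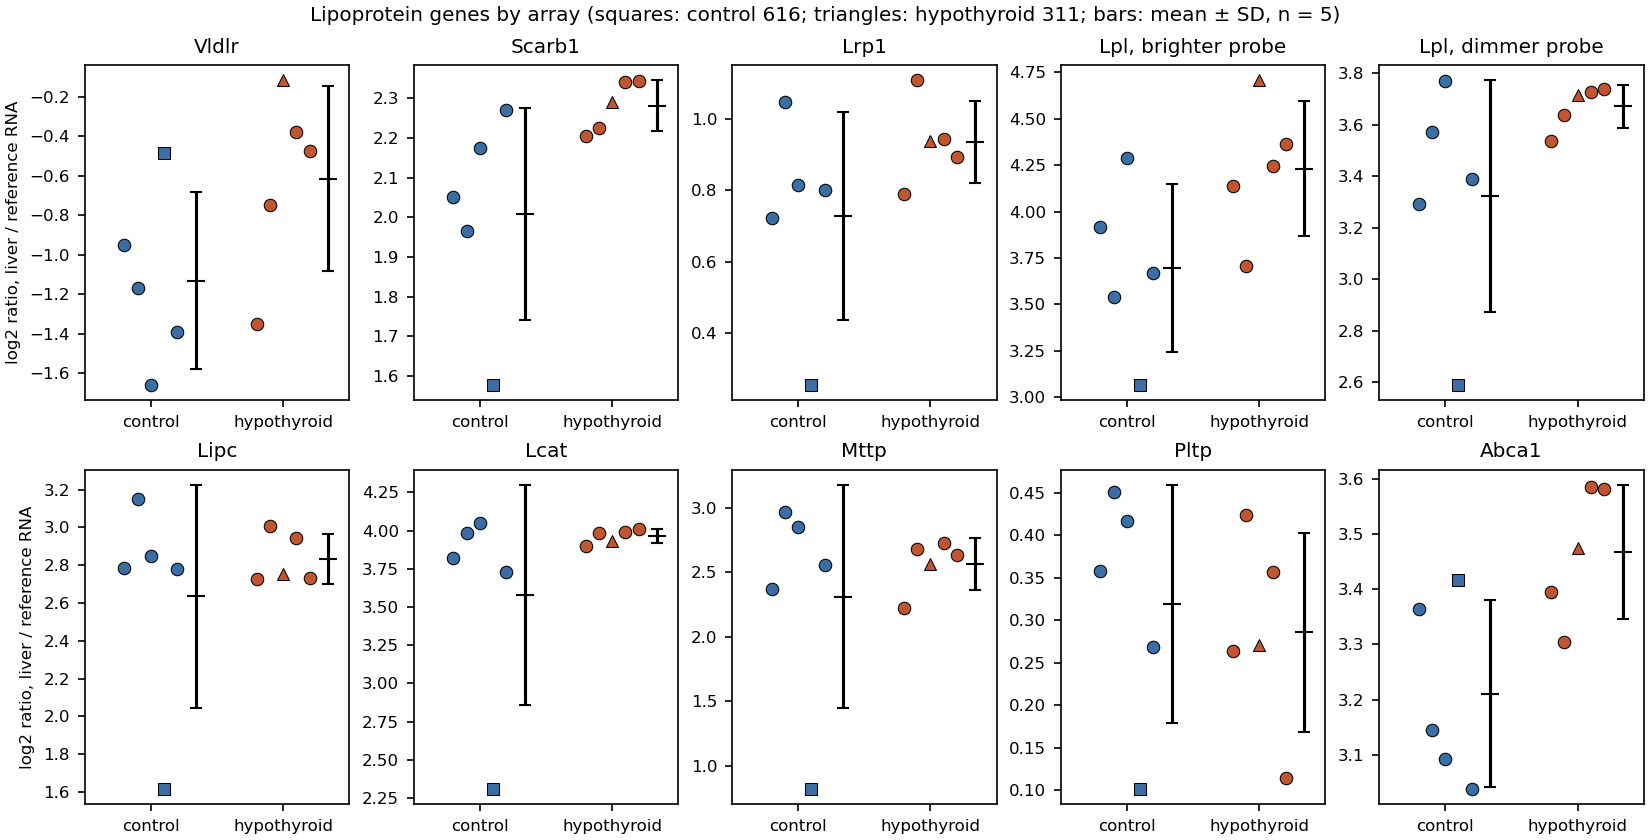
Log2 ratio of liver to reference RNA on each array for the 10 probes of the 9 genes, control in blue and hypothyroid in orange, with the mean and SD of 5 arrays at the side; each panel has its own scale. Control 616 (squares) is the lowest point in 8 of 10 panels, and hypothyroid 311 (triangles) is the highest for Vldlr and for the brighter Lpl probe.

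Without control 616, Vldlr and Abca1 were the members with the smallest p. Over the same arrays their ratios were the most alike of the 36 pairs of members. For that reason the stretches before their starts are shown, as RefSeq gives them on GRCm38.p6. Only bases outside the annotated gene are printed, 5′ to 3′ on the gene's strand. Capitals mark a GC box (GGGCGG on either strand, the core of sites bound by Sp1) and an E-box (CACGTG).
Vldlr, chr19:27216234-27216479, plus strand: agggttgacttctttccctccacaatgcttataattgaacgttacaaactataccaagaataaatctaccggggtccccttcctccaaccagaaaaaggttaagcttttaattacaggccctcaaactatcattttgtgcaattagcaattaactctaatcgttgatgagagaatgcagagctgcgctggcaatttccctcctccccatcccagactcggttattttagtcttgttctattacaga
Abca1, chr4:53159989-53160145, minus strand: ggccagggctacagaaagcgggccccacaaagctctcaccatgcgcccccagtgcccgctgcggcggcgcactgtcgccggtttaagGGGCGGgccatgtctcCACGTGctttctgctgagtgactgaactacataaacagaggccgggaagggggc
The Vldlr stretch held none of the motifs searched. In the Abca1 stretch the GC box comes first and the E-box follows it. A further start of Vldlr and the rest of the Abca1 stretch lie within the annotated genes and are not printed.

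Of the 9 genes, 7 had stretches of 250 bases before an annotated start in the table used, 9 stretches in all, and Scarb1 and Lpl had none. The motif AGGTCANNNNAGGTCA, a pair of hexamers with a spacer of 4 bases of the kind thyroid hormone receptors bind, was searched on both strands with up to 2 mismatches. It was matched in 0 of the 9 stretches, and in 2.57% of 32851 stretches of the same length. The single hexamer AGGTCA was matched in 1 of the 9, a stretch of Lipc within the annotated gene, where it occurs once on each strand, from 88 to 83 and from 76 to 71 bases before that start, and in 14.0% of all. A GC box was matched in stretches of Vldlr, Lrp1, Lipc, Pltp and Abca1, and in 32.7% of all stretches. The E-box was matched in Abca1 alone, and in 6.02% of all. These are matches of letters, and binding was not measured.

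Vldlr, which takes up triglyceride-rich particles and is low in healthy adult liver, had the second highest difference of the 9 genes, after Lpl. Its ratios were -0.95, -1.17, -1.66, -0.48 and -1.39 in controls 881, 832, 522, 616 and 391. They were -1.35, -0.75, -0.12, -0.38 and -0.48 in hypothyroid 891, 576, 311, 723 and 626. All 10 ratios were below 0, so liver held less Vldlr RNA than the reference, and the groups overlapped, since control 616 was high and hypothyroid 891 was low. The means were -1.13 ± 0.45 and -0.61 ± 0.47 (SD, n = 5 each), a difference of 0.52 (95% interval -0.04 to 1.07) or 1.43-fold (limma adjusted p = 0.692, exact two-sided permutation p = 0.103). Without control 616 the difference was 0.68 (0.20 to 1.16, limma adjusted p = 0.435), and 4 of 5 hypothyroid values were above all 4 controls. Over all assignments of these 9 arrays, the exact two-sided permutation p was 0.048. Hypothyroid 311, the liver with high adipocyte markers, had the highest ratio, and the part of those cells in it was not tested. Without that array alone the difference was 0.39 (limma adjusted p = 0.804), and without both arrays it was 0.55 (0.09 to 1.02, limma adjusted p = 0.557, exact permutation p = 0.086).

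Scarb1, the receptor through which liver takes cholesterol esters from high density lipoprotein, was at 4.02 times the reference in control liver. Its ratios were 2.05, 1.96, 2.18, 1.58 and 2.27 in the controls, in the order above. In the hypothyroid livers they were 2.21, 2.23, 2.29, 2.34 and 2.34. The hypothyroid values lay close together and 3 of 5 were above all controls. The difference was 0.27 (95% interval 0.02 to 0.53, 1.21-fold, limma adjusted p = 0.654), and the exact two-sided permutation p was 0.032. Without control 616 it was 0.17 (-0.0013 to 0.33, limma adjusted p = 0.680).

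Lrp1, a large endocytic receptor for remnants, gave ratios of 0.72, 1.05, 0.81, 0.25 and 0.80 in control liver. In hypothyroid liver they were 0.79, 1.11, 0.94, 0.94 and 0.89. Apart from control 616 the groups lay across each other. The difference was 0.21 (95% interval -0.08 to 0.49, limma adjusted p = 0.731), and 0.09 (-0.10 to 0.28, limma adjusted p = 0.911) without that array.

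Lpl, the lipase that clears triglyceride from particles in the capillaries of fat and muscle, is made in liver of newborn mice and much less in the adult. In these control pups it was at 13.0 times the reference. Its brighter probe had ratios of 3.92, 3.54, 4.29, 3.07 and 3.67 in control liver. The hypothyroid ratios were 4.14, 3.71, 4.71, 4.25 and 4.37. The means were 3.70 ± 0.45 and 4.23 ± 0.36 (SD, n = 5 each), and 2 of 5 hypothyroid values, 311 and 626, were above all controls. The difference was 0.54 (95% interval 0.04 to 1.04), or 1.45-fold (limma adjusted p = 0.655, exact two-sided permutation p = 0.079). It was 0.38 (-0.04 to 0.80, limma adjusted p = 0.727) without control 616 and 0.42 (limma adjusted p = 0.799) without hypothyroid 311. Without both it was 0.26 (-0.13 to 0.65, limma adjusted p = 0.789). The part of adipocyte RNA in hypothyroid 311 in these values was not tested. The dimmer Lpl probe gave 3.29, 3.57, 3.77, 2.59 and 3.39 in the controls and 3.54, 3.64, 3.72, 3.73 and 3.74 in the hypothyroid livers. There hypothyroid 311 did not stand out, and the difference was 0.35 (limma adjusted p = 0.711), or 0.16 (limma adjusted p = 0.785) without control 616. Against controls 881 and 391 alone it was 0.33 (0.13 to 0.53, limma adjusted p = 0.384), the smallest p of the member probes in that set. All 5 hypothyroid values were above both controls, as for 6.02% of all probes.

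Lipc, the hepatic lipase that trims remnants and high density particles, had overlapping groups, with 1 control array far below the rest. Its ratios were 2.78, 3.15, 2.85, 1.62 and 2.78 in control liver, and 2.73, 3.01, 2.75, 2.95 and 2.73 in hypothyroid liver. The difference of 0.20 (95% interval -0.32 to 0.72, limma adjusted p = 0.844) became -0.06 (-0.27 to 0.15, limma adjusted p = 0.963) without control 616.

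Lcat, the plasma enzyme that esterifies cholesterol on high density lipoprotein, is made mostly in liver. Its ratios were 3.82, 3.98, 4.05, 2.31 and 3.73 in control liver. They were 3.90, 3.98, 3.93, 3.99 and 4.01 in hypothyroid liver. The difference was 0.39 (95% interval -0.23 to 1.00, limma adjusted p = 0.756), and 0.07 (-0.10 to 0.24, limma adjusted p = 0.930) without control 616. Against controls 881 and 391 alone it was 0.19 (limma adjusted p = 0.661), with all 5 hypothyroid values above both, as for 6.02% of all probes.

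Mttp, which loads triglyceride onto apolipoprotein B as particles form, had ratios of 2.37, 2.97, 2.85, 0.82 and 2.55 in control liver. In hypothyroid liver they were 2.22, 2.68, 2.57, 2.73 and 2.63. The difference of 0.25 (95% interval -0.50 to 1.01, limma adjusted p = 0.867) became -0.12 (-0.42 to 0.18, limma adjusted p = 0.930) without control 616. Pltp, which moves phospholipid between particles in plasma, had ratios from 0.10 to 0.45 in control liver and from 0.11 to 0.42 in hypothyroid liver. Its difference was -0.03 (95% interval -0.22 to 0.15, limma adjusted p = 0.935), and -0.09 (-0.26 to 0.08, limma adjusted p = 0.892) without control 616. For both genes the hypothyroid range lay inside the control range, whose low end was control 616. Without that array, 1 hypothyroid value of Mttp and 2 of Pltp were below all controls.

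Abca1, the transporter that hands cholesterol to apolipoprotein A-I, had the smallest p of the 9 genes over 10 arrays. Its ratios were 3.36, 3.15, 3.09, 3.42 and 3.04 in control liver. They were 3.40, 3.30, 3.47, 3.59 and 3.58 in hypothyroid liver. Here control 616 was the highest control rather than the lowest array, and 3 of 5 hypothyroid values were above all controls. The means were 3.21 ± 0.17 and 3.47 ± 0.12 (SD, n = 5 each), a difference of 0.26 (95% interval 0.05 to 0.46, limma adjusted p = 0.599). That is 1.20-fold, with an exact two-sided permutation p of 0.048. Without control 616 it was 0.31 (0.12 to 0.50, limma adjusted p = 0.321), with 4 of 5 hypothyroid values above all controls and an exact permutation p of 0.024. Without hypothyroid 311 as well it was also 0.31 (limma adjusted p = 0.450, exact permutation p = 0.057), and against controls 881 and 391 alone it was 0.27 (limma adjusted p = 0.660). With slide as a fixed block it was 0.18 (limma adjusted p = 0.695) and its unadjusted limma p was no longer below 0.05, while those of Scarb1 (0.32) and Lpl (0.53) were.

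**Figure D2:**
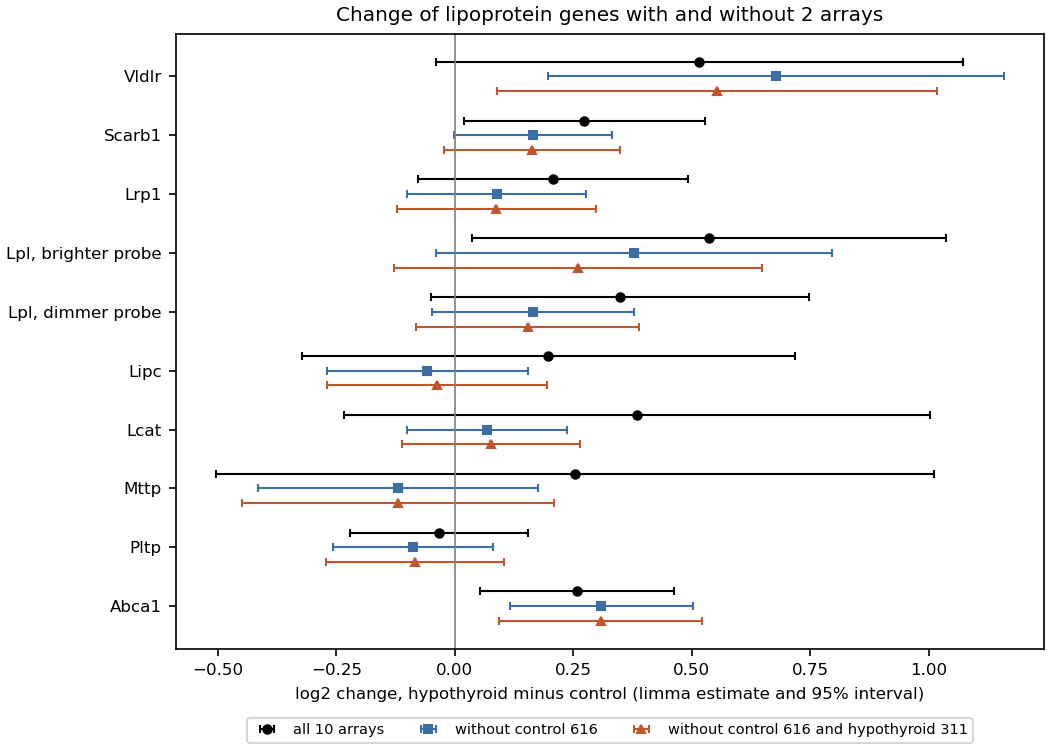
Difference of hypothyroid from control (log2) with its 95% interval from limma for each probe, over all 10 arrays (black), without control 616 (blue) and without control 616 and hypothyroid 311 (orange). The intervals of Lcat and Mttp narrow and their estimates move toward or past 0 when control 616 is left out. The estimates of Vldlr, Abca1 and the brighter Lpl probe round to 0.26 or more in all 3 sets. Of these, only Abca1 has intervals that exclude 0 in all 3. The dimmer Lpl probe is at 0.35, 0.16 and 0.15.

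Control 616 lay below the other arrays by more, the higher the ratio of a gene was in the other livers. For all kept probes, the median displacement of control 616 from the mean of the other 9 arrays was 0.87 where that mean was below -1 and -1.17 where it was above 3. The 9 genes were displaced by -1.80 (Mttp), -1.62 (Lcat), -1.24 (Lipc), -0.997 (Lpl, brighter probe), -0.64 (Lrp1), -0.63 (Scarb1), -0.22 (Pltp), 0.43 (Vldlr) and 0.09 (Abca1). Among the genes with a mean ratio above 2, only Abca1 was not displaced downward. Other members also departed from their bands. Mttp and Lipc fell further than the median of -0.74 for means from 2 to 3. Lcat fell further than the -1.17 of its band, and Lrp1 further than the -0.08 for means from 0 to 1. In probes with a mean ratio above 3, the median difference of hypothyroid from control was 0.34 over all 10 arrays and 0.10 without control 616. From 2 to 3, the band that holds Scarb1, Lipc and Mttp, these medians were 0.18 and 0.04. The difference of a liver-rich gene over 10 arrays is to be read against the median of its own band.

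**Figure D3:**
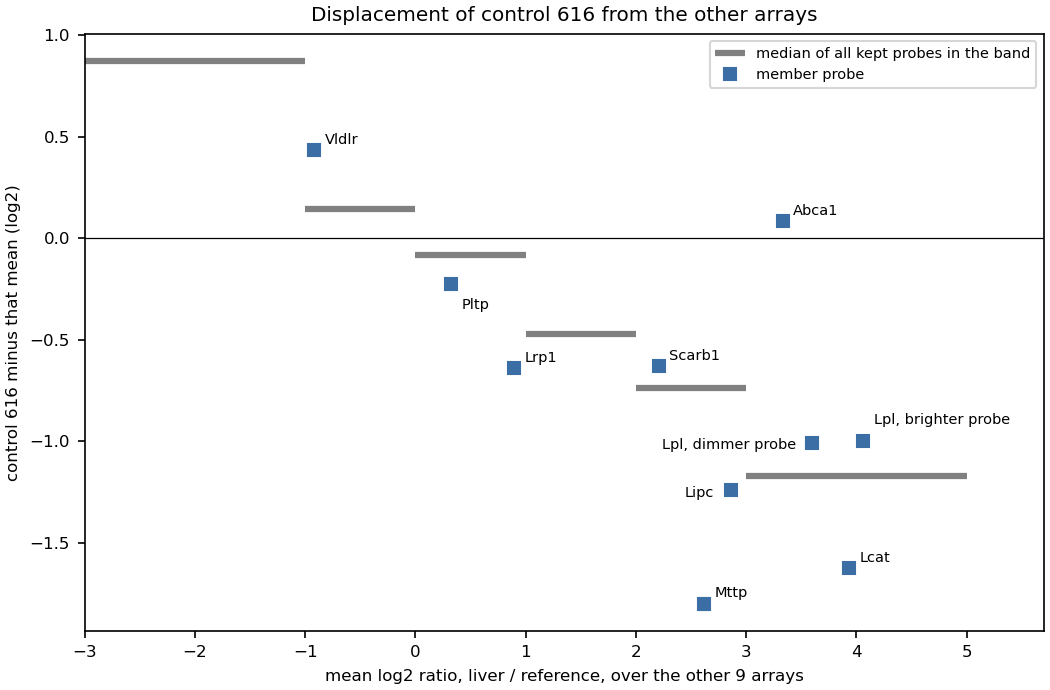
Displacement of control 616 from the mean of the other 9 arrays (log2, vertical) against that mean (log2 ratio of liver to reference, horizontal) for the member probes (squares), with the median of all kept probes in 6 bands of ratio (grey lines; the outer bands are open). Most members run downward to the right as the bands do. Abca1 lies above its band, and Mttp, Lipc, Lcat and Lrp1 lie below theirs.

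Of 6 slides, 4 held 1 array of each group, and each slide was scanned on its own day. On slide 100, which held control 616, hypothyroid 626 was higher in 9 of 9 genes, with a median of 0.77, against 44.6% of all probes. Probes with a mean ratio above 2 in the arrays other than control 616 had a median of 0.96 on that slide. On each of slides 136, 139 and 141 the hypothyroid liver was higher in 5 of 9 genes, with medians of 0.11, 0.03 and 0.06. Of all probes, 52.6%, 46.3% and 48.1% were higher on these slides. Scarb1, Lrp1, Lpl (brighter probe) and Abca1 were higher in the hypothyroid liver on 4 of 4 slides, slide 100 with control 616 among them. The dimmer Lpl probe was higher on 3 of 4, with -0.05 on slide 136. The share of all probes higher on 4 of 4 slides is not given. For Abca1 the differences were 0.17, 0.38, 0.03 and 0.16 on slides 100, 136, 139 and 141, and for Scarb1 they were 0.77, 0.11, 0.15 and 0.26. Vldlr was 1.54 higher on slide 136, which held hypothyroid 311, and 0.42 higher on slide 141. It differed by 0.01 on slide 100 and by -0.40 on slide 139. Lipc, Mttp and Pltp were higher on slide 100 only. The remaining 2 arrays, control 391 and hypothyroid 723, had slides of their own here.

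**Figure D4:**
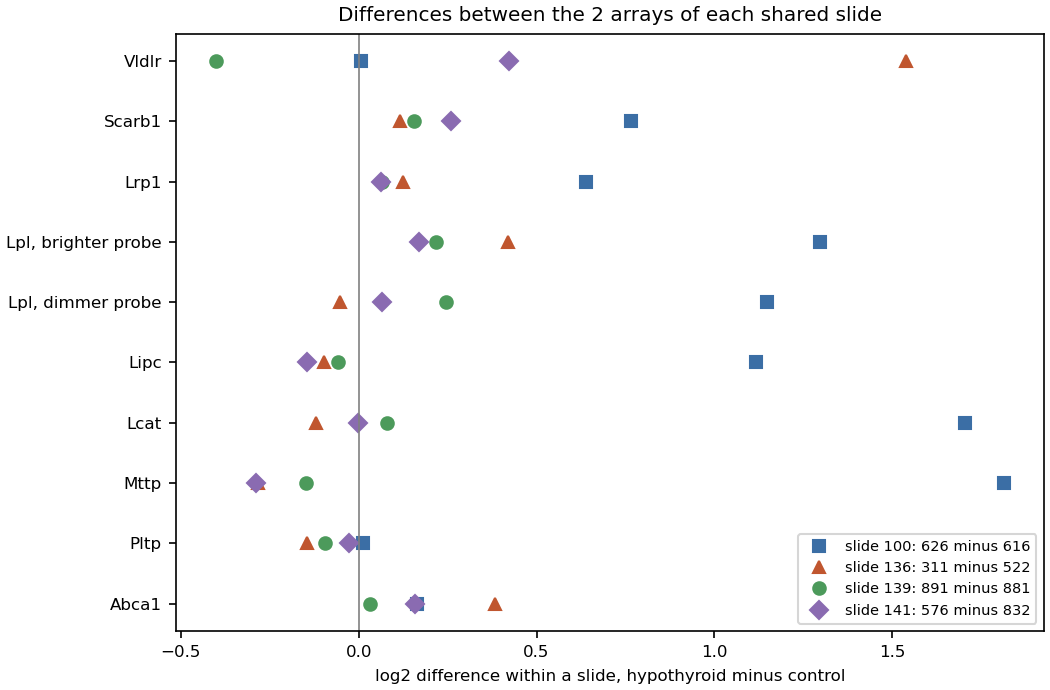
Hypothyroid minus control (log2) for each probe on the 4 slides that held both groups; each symbol is 1 slide and 1 pair of livers. Slide 100 (squares) lies far to the right of the others for most genes but not for Vldlr, Pltp and Abca1.

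Other genes of lipoprotein handling were taken from a list of 42, of which 38 had a kept probe. None passed the adjusted threshold. At an unadjusted limma p below 0.05, 2 of 38 were higher (P4hb and Sdc1), against 3.39% of all probes, and 1 was lower (Sort1), against 4.07%. The median difference was 0.04 over 10 arrays and -0.0056 without control 616, where 2 were higher (3.47% of all probes) and 4 lower (3.94%). The 4 lower genes without control 616 were Sort1, Pnpla2, Gpihbp1 and Mia2.

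Among 13 receptors and uptake genes, Sdc1, a heparan sulfate proteoglycan that binds remnants on hepatocytes, had the smallest p. Its ratios were 1.34, 1.61, 1.14, 0.40 and 1.43 in control and 1.77, 1.95, 1.88, 1.53 and 1.87 in hypothyroid liver, with 4 of 5 hypothyroid values above all controls. The difference was 0.62 (95% interval 0.19 to 1.05, limma adjusted p = 0.521, exact permutation p = 0.016), and 0.42 (limma adjusted p = 0.236) without control 616. Sort1, a sorting receptor that binds apolipoprotein B in the secretory pathway, went the other way. Its ratios were 2.71, 2.36, 1.80, 1.58 and 2.10 in control and 1.60, 1.53, 1.73, 1.76 and 1.44 in hypothyroid liver. The difference was -0.50 (95% interval -0.91 to -0.09, limma adjusted p = 0.608, exact permutation p = 0.040). Without control 616 it was -0.63 (limma adjusted p = 0.203), with all 5 hypothyroid values below all 4 controls, as for 1.42% of all probes. The other 3 Sort1 probes differed by -0.23, -0.14 and -0.12. Cd36, a fatty acid transporter and scavenger receptor, differed by -0.18 (limma adjusted p = 0.717).

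Of 9 lipases and lipase regulators, none had an unadjusted limma p below 0.05 over 10 arrays. Pnpla2, the lipase of stored triglyceride, differed by -0.32 (limma adjusted p = 0.705), and by -0.42 (limma adjusted p = 0.451) without control 616. Angptl4, a secreted inhibitor of Lpl, differed by -0.72 (95% interval -1.60 to 0.16, limma adjusted p = 0.722), and its control ratios ran from 0.06 to 2.67. Apoa5, an apolipoprotein that aids Lpl, differed by 0.53 (limma adjusted p = 0.705), and by 0.24 without control 616. Its dimmer probe differed by 0.25 over 10 arrays (limma adjusted p = 0.761). Of the other genes that act on Lpl, the inhibitor Apoc3 differed by 0.38 and 0.46 on its 2 probes (limma adjusted p = 0.773 and 0.743). Gpihbp1, which holds Lpl on the capillary wall, differed by -0.18 (limma adjusted p = 0.785), and by -0.31 (limma adjusted p = 0.515) without control 616. Apoc3 and Gpihbp1 were named after their values were seen.

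Of 6 genes of particle assembly, P4hb, the protein disulfide isomerase subunit that pairs with Mttp, was the only gene on the list whose groups did not overlap, as for 1.08% of all probes with hypothyroid higher. Its ratios were 0.15, 0.47, 0.49, -0.14 and 0.50 in control and 0.77, 0.58, 0.85, 0.57 and 0.81 in hypothyroid liver. The difference was 0.42 (95% interval 0.14 to 0.70, limma adjusted p = 0.492), and 0.31 (limma adjusted p = 0.378) without control 616. Its partner Mttp had no such separation. Apob, the structural protein of the particles, differed by 0.61 (limma adjusted p = 0.731), and by 0.19 without control 616. Mia2, which helps large cargo leave the endoplasmic reticulum, differed by -0.17 (limma adjusted p = 0.731). Its dimmer probe went the other way, by 0.07 (limma adjusted p = 0.911).

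Of 10 genes of cholesterol efflux and esters, none had an unadjusted limma p below 0.05. Abcg8, which exports sterols to bile together with Abcg5, differed by 0.43 (limma adjusted p = 0.710). Apoa1, the acceptor of cholesterol from Abca1, differed by 0.67 (limma adjusted p = 0.712), and Apoe, a ligand of remnant receptors, by 0.82 (limma adjusted p = 0.727). Without control 616 the estimates of Abcg8, Apoa1 and Apoe were 0.30, 0.29 and 0.41.

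**Figure D5:**
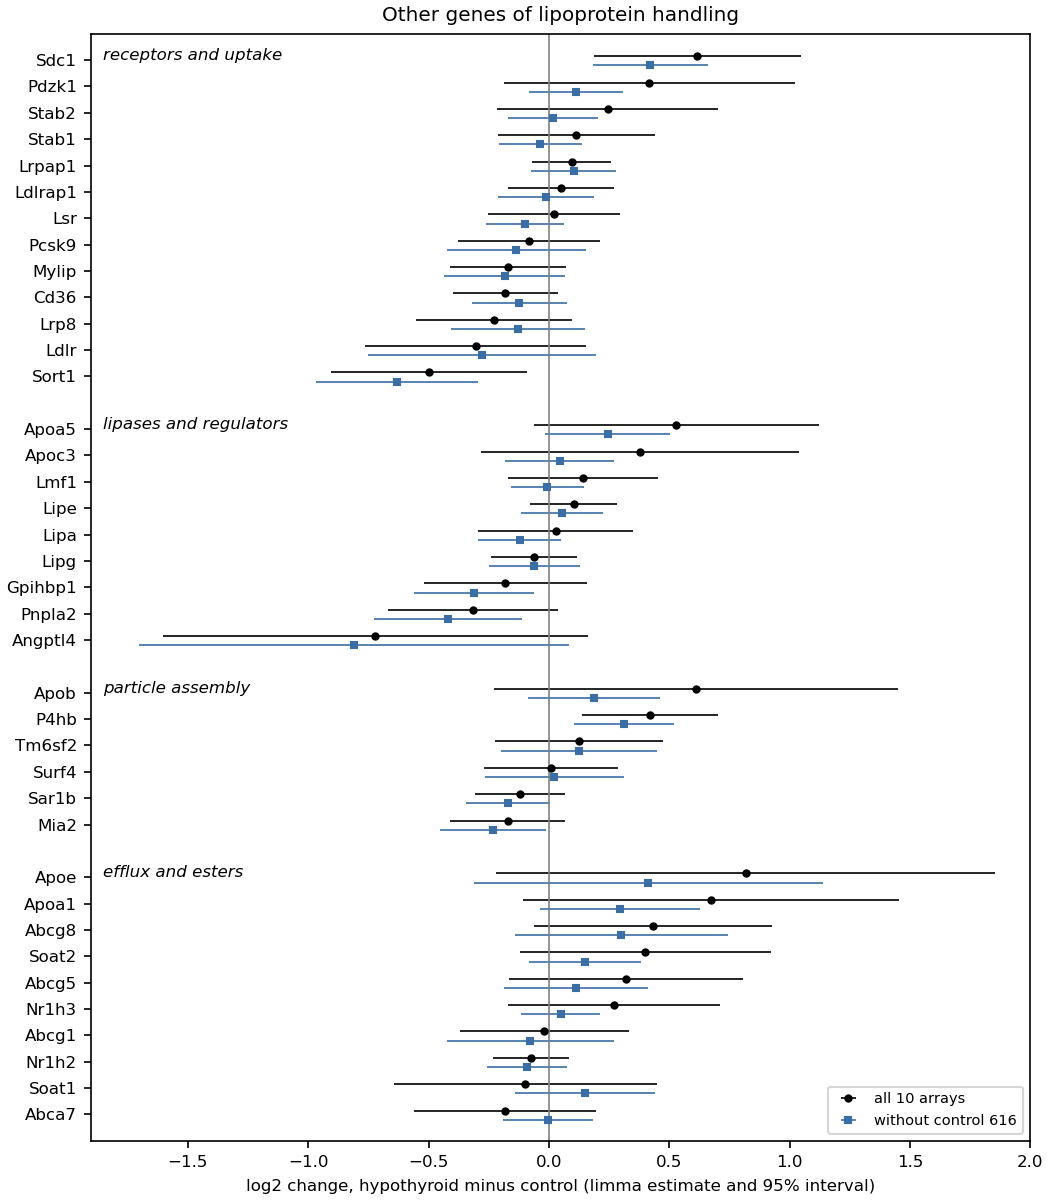
Difference of hypothyroid from control (log2) with its 95% interval from limma for the 38 other genes of lipoprotein handling, grouped by role, over 10 arrays (black) and without control 616 (blue). P4hb and Sdc1 lie above 0 and Sort1 below 0 with both intervals clear of 0, and many intervals, as for Apob and Apoa1, are much narrower without control 616.

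The ratios of the members across livers were compared without control 616, which was lowest for most of them. Over these 9 arrays Pearson's r of the 36 pairs of members ran from -0.63 to 0.81, with a median of 0.25, and over all 10 arrays the median was 0.53. Vldlr and Abca1 were the most alike pair, at 0.81. Over 10 arrays their r was also 0.81, but other pairs were higher, up to 0.97 for Lipc and Mttp. Of 14447 other genes, Crot and Ivd followed Lpl most closely (r = 0.98 and 0.97 over 9 arrays), with like values over 10 arrays (0.98 and 0.96). Cysltr1 and Rint1 were nearest to Abca1 (0.98 and 0.98, over 10 arrays 0.68 and 0.90), and Lap3 and Dync2li1 to Vldlr (0.96 and 0.94, over 10 arrays 0.68 and 0.95). Creb3l3 and Pfkm were nearest to Scarb1, Sf3b1 and Stk40 to Lrp1, Plpp7 and Col25a1 to Lipc, Trim30b and Tnfsf14 to Lcat, Snrk and Asah2 to Mttp, and Kcne4 and Bub1b to Pltp. For these 12 genes r was from 0.92 to 0.98 over 9 arrays and from -0.39 (Pfkm) to 0.99 (Snrk) over 10, and it was under 0.4 also for Sf3b1, Col25a1 and Bub1b. The best r of any gene with any other over these 9 arrays had a median of 0.96, so values of this size are usual here. All 9 arrays share the same reference RNA, and the correlations are descriptions.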

How the data were processed

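Two-colour arrays of 10 livers were used. The authors deposited scanner output, with the median intensity of each spot and its local background in both channels and the scanner software's processed intensity; these values were not normalized between arrays. Per the labels, Feature Extraction 10.1.1.1 is named in the submitters' processing notes. The TLDA files hold miRNAs and were not used here.

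Median intensities were corrected with normexp (offset 50) and normalized by loess (span 0.2) within arrays in limma 3.58.1 (R 4.3.3, data.table in version 1.17.8, statmod 1.5.0). Outlier spots were left out and spots of a probe averaged. Of 41174 probes, 32057 were kept, whose liver channel exceeded, in at least 4 of 5 arrays of a group, a limit set from negative control spots (their mean plus 3 SDs, each trimmed by 5%); 75.9% to 85.4% of probes passed on each array. The number of arrays limits the precision. Accessions matched 23374 probes to RefSeq symbols (GRCm38.p6). A gene was given by its brightest kept probe. limma compared the groups on the log2 ratio, with Benjamini-Hochberg adjustment over all kept probes at 0.05. The channels of slide 141 were exchanged. The fit stands for the study's Fs test, run as an alternative with 100 residual shuffles. Exact permutation tests used all 252 assignments of 5 against 5 (smallest p 0.0079). The program was tested on simulated data.

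One gene of the pathway list is not reported here. The members and lists were chosen with earlier results of these data known. Named were all members, 3 genes of smallest p in each role, 2 genes most like each member, and 3 thyroid hormone targets. Alternatives were the dyes as labelled, no slide 141, background correction, processed intensities, median centring, loess span, filters, slide as a block, gene averages and leaving out each array.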

Additional observations from a re-analysis of the deposited data

Results flagged for a closer look

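In 26 groups of 5 values checked, 4 held a value far from the others of its group (15.4%, where chance gives about 5%), and all 4 were control 616 as the lowest control. Its gap to the next control, divided by the range of the 5 controls, was 0.813 for Lcat, 0.758 for Lipc, 0.722 for Mttp and 0.835 for Dio1, against a limit of 0.71 for 5 values. These flags share 1 array and are not separate events.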

How the results depend on the processing

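No member passed the adjusted threshold under any alternative, and the smallest adjusted limma p was 0.321 (Abca1 without control 616). Vldlr ranged from 0.35 to 0.75, Abca1 from 0.18 to 0.48, Scarb1 from 0.12 to 0.49, Lpl from 0.26 to 0.73, Lcat from 0.07 to 0.61 and Lrp1 from 0.09 to 0.42, with no change of sign. Lipc turned to -0.058 without control 616, -0.015 without slide 141 and control 616, and -0.038 without arrays 616 and 311, and Mttp to -0.12, -0.054 and -0.12. Pltp turned to 0.17 with median centring, which moved the median of all probes by 0.098, and to 0.0093 without hypothyroid 626. With 1 array left out, Lipc ranged from -0.058 to 0.33, Mttp from -0.12 to 0.42 and Pltp from -0.088 to 0.0093. The causes were not tested.

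Over all probes, the 3 calls became 0 with the dyes as labelled, without slide 141, with slide as a fixed block and with probes averaged to genes. They became 1 with processed signals, with median centring, without slide 141 and control 616, and without the controls 832, 522 and 616, and 5 with probes above the limit on all 10 arrays, 8 without background correction, 12 without arrays 616 and 311, and 14 with slide as a random block. Leaving out 1 array gave 1 to 34, with 34 without control 616, 6 without hypothyroid 723, 2 without hypothyroid 891, and 1 without control 832 or 391 or hypothyroid 576 or 626. The 2393 probes at an unadjusted p below 0.05 became 107 with the dyes as labelled, 317 with median centring and 1185 with genes averaged (fewer features tested), and 1672 to 3010 with 1 array left out. The 3 members at an unadjusted p below 0.05 became 0 with the dyes as labelled and with median centring, and 1 to 3 with 1 array left out (1 without control 391, hypothyroid 311, 723 or 626). Members whose groups did not overlap went from 0 to 1 without slide 141 and control 616 and without the controls 832, 522 and 616, and 0 to 1 with 1 array left out. Over 10 arrays the groups did not overlap for 2.07% of all probes. Without the controls 832, 522 and 616, all hypothyroid values were above both remaining controls for 6.02% of all probes. For the other settings with 1 such member the share of all probes is not given, so those counts cannot be read as a result about the members. The 3 of 38 listed pathway genes at an unadjusted p below 0.05 became 0 with the dyes as labelled and with median centring. They became 6 with slide as a fixed block and without arrays 616 and 311, and 7 with the Fs test. Without the controls 832, 522 and 616 they were 9, and without slide 141 and control 616 they were 11. With 1 array left out they were 3 to 8, with 8 without control 522 and 6 without control 616 or 391. Of all probes, 7.46% were below 0.05 over 10 arrays, 7.86% without arrays 616 and 311, and 7.38% without the controls 832, 522 and 616. The probe counts were 2234 of 32057 with the fixed block, 2707 of 31635 with the Fs test, and 2396 of 32870 without slide 141 and control 616. They were 2795 of 31468 without control 522, 2345 of 31670 without control 616 and 2364 of 31600 without control 391. The settings that leave out 2 or more arrays by number, or slide 141 with control 616, were chosen after seeing the data. By animal number, no paired analysis was possible because the arrays of the groups share none, and the slide shared by 4 pairs of arrays was the block used.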
